A study of Mus musculus with 12 samples.

Results

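The genes described here encode the matrix metalloproteases, the ADAMTS proteases, the ADAMTS-like proteins and the tissue inhibitors of metalloproteases (TIMPs). They were taken by name as every gene with a symbol of *Mmp*, *Adamts*, *Adamtsl* or *Timp* followed by a number, with or without a closing a or b, that reached a level of 0.5 CPM in at least 1 animal. Of the 55397 genes in the count table, 51 matched by name and 40 were members, made up of 13 *Mmp*, 18 *Adamts*, 5 *Adamtsl* and 4 *Timp* genes. CPM are counts scaled to a common library size, here after TMM normalisation.

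Primary neuron cultures of newborn (P0) *Myt1l* (+/−) and (+/+) mice were compared by RNA sequencing on day in vitro 11, to ask what the loss of 1 copy of the neuronal transcription factor MYT1L does to gene expression. Each genotype had 3 animals, which are called replicates 505, 506 and 508 for (+/−) and 510, 511 and 513 for (+/+), and each animal had 2 libraries. The (+/−) animals carried a frameshift deletion of 7 bp in exon 6 of *Myt1l* that was made with CRISPR/Cas9 in zygotes and is present in every cell, not in neurons alone. The labels give all animals as male C57BL/6J and the tissue as cortex. The paper's methods name zygotes of C57BL6/N and either tissue for such cultures, and its list of samples calls the sequenced ones hippocampal. All cultures of both genotypes grew in medium with serum and received 2 µM Ara-C, which kills dividing cells. Nothing in the sources used here says what distinguished both libraries of an animal, so their counts were summed and the animal was the replicate. The labels do not say whether animals shared a litter.

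Totals per animal were 40642699 to 52833161 counts. The labels state that the mutant *Myt1l* mRNA does not decay, so its counts could not check the genotype labels. *Xist*, the RNA of the inactive X chromosome of females, had 18805 counts in replicate 511, labelled male like the rest, and 5 to 10 counts in each of the others. The counts contradict the male label of replicate 511, so the (+/+) group cannot be taken as all male, and sex was not in the fit. Of the members, *Timp1* lies on the X chromosome. Replicate 505 stood apart for the genes described here, with the highest level of all animals in 23 of the 40 members and the lowest in 7. Over the 38 to 39 members with 50 or more counts in an animal, the median ratio between its libraries was 1.04 to 1.09, and the largest was 1.23 (replicate 505) to 2.00 (replicate 513).

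Matrix metalloproteases and ADAMTS proteases are zinc enzymes that cut proteins of the extracellular matrix and of the cell surface. They are made as inactive proenzymes and most are secreted, whereas some MMPs are anchored in the membrane. In the brain they cut the chondroitin sulphate proteoglycans that surround synapses and form perineuronal nets, and they take part in axon growth, synaptic plasticity and the response of glia to injury. TIMPs bind the active site and block it, and TIMP3 also blocks several ADAMTS proteases.

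The promoters shown here are those of *Timp4*, the TIMP with the largest fold change, and of *Mmp12*, the MMP with the largest fold change, because both genes hold the letters AAAGTT, the core motif to which MYT1 family zinc fingers bind. Windows ran from 250 bases before to 50 bases after an annotated start (RefSeq, GRCm38.p6) and were 300 bases long. Capitals mark AAAGTT, its reverse complement AACTTT, or TGAGTCA, the reverse complement of the AP-1 motif TGACTCA. AP-1 is the dimer of Fos and Jun proteins and a well known activator of metalloprotease genes. *Mmp12* has 2 annotated starts, both on the forward strand.
Timp4, chr6:115252156-115252455, reverse strand: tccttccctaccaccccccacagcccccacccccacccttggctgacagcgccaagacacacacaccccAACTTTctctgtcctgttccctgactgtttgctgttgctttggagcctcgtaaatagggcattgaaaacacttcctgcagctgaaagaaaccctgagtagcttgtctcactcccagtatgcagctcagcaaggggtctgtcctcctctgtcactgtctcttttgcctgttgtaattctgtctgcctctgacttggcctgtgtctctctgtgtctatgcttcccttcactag
Mmp12, first start, chr9:7344147-7344446, forward strand: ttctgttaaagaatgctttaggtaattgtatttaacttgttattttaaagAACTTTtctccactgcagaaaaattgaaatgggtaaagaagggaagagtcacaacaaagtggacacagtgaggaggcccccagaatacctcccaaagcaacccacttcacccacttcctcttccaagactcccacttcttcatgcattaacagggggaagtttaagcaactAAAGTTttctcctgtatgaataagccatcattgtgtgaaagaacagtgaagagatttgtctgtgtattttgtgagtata
Mmp12, second start, chr9:7347124-7347423, forward strand: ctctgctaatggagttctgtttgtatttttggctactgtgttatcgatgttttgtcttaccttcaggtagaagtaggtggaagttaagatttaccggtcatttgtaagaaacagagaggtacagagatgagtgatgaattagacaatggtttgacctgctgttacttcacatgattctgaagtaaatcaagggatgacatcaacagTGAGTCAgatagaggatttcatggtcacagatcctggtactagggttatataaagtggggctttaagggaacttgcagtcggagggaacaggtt
Counted from the annotated start, the match began at position -181 in *Timp4*, at -200 and -29 at the first start of *Mmp12*, and at -44 for the AP-1 motif at its second start. Of the 40 members 26 had a window in the RefSeq table used here, with 28 windows in all. AAAGTT on either strand was found in 7 of these 28 windows (25%), against 14.1% of all 32851 windows. The 7 genes were *Timp4*, *Mmp12*, *Mmp3*, *Mmp14*, *Adamts2*, *Adamts13* and *Adamtsl3*. Their log2 fold changes, (+/−) against (+/+), differed in sign, at 0.78, 1.04, −0.32, 0.35, 0.13, −0.54 and 0.34 in this order. TGACTCA on either strand was found in 2 of 28 windows (7.14%), those of *Mmp12* and *Mmp3*, against 5.2% of all windows. A match of letters is a description and does not show binding.

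Levels were compared between genes only per kilobase of exon, as CPM per kb in the (+/+) animals. *Timp2*, which inhibits MMPs and also helps MMP14 to activate the MMP2 proenzyme, was the most abundant member with a mean of 154 CPM per kb (143 to 170 over the 3 animals). Next came *Timp3* with 35.4 (29.7 to 46.4), the gelatinase gene *Mmp2* with 32.9 (25.9 to 36.6), *Adamts1* with 26.9 (24.1 to 28.9) and *Timp1* with 21.3 (17.5 to 25.4) CPM per kb. Of these, only *Timp2* lay clear of its neighbour, and the ranges of each following pair overlapped. *Mmp24*, *Mmp17*, *Adamtsl4*, *Mmp15* and *Mmp14* followed with means of 20.01 to 11.8 CPM per kb. These 10 members were above 10 CPM per kb, 13 were under 1, and 31 of the 39 neighbouring pairs in the order had overlapping ranges. *Adamts6* lay near the bottom of the order, at 0.281 CPM per kb, and *Adamts16* was the lowest at 0.163.

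**Figure D1:**
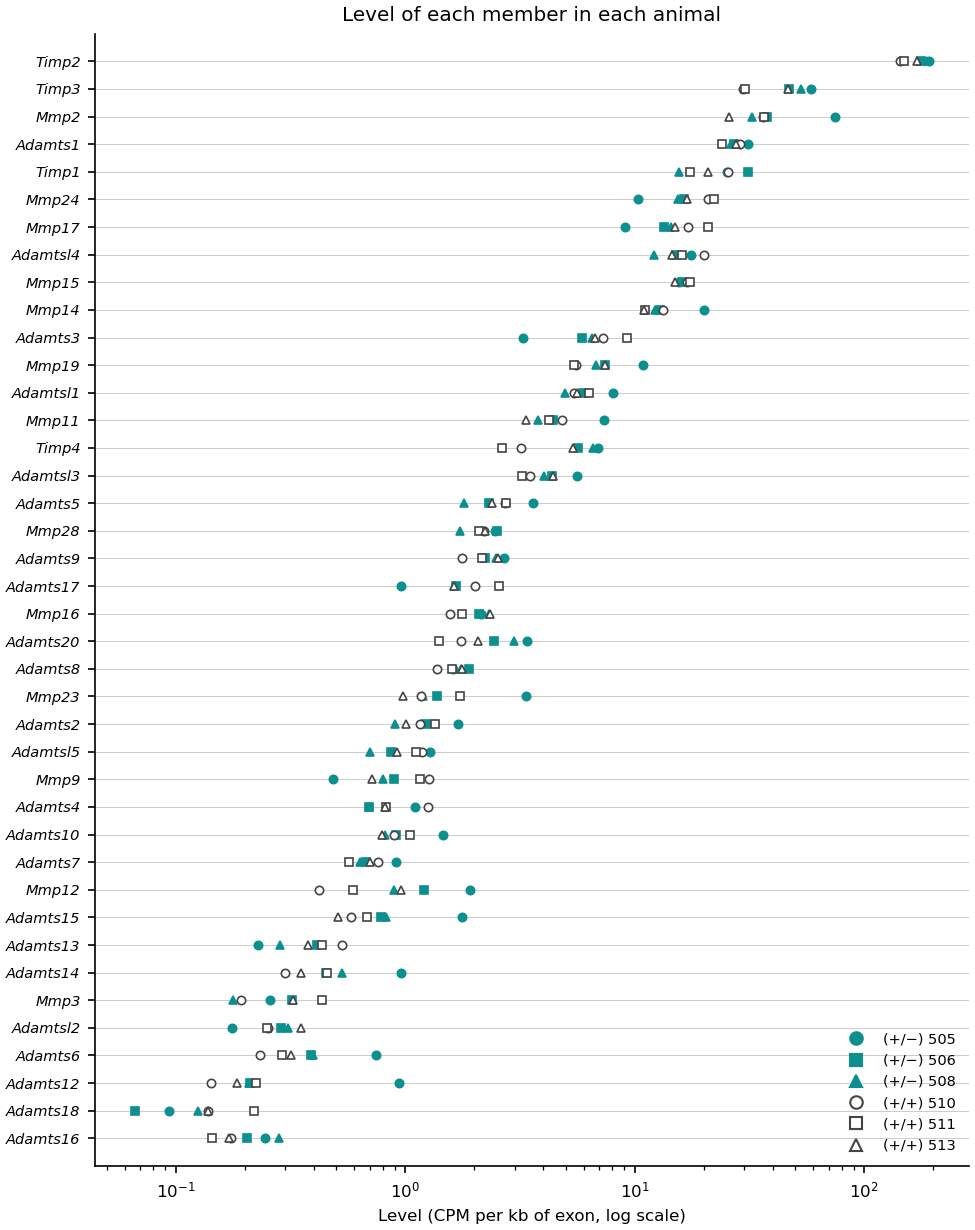
Level of each of the 40 members in CPM per kb of exon (log axis) in each animal, ordered by the (+/+) mean. Filled symbols are the 3 (+/−) and open symbols the 3 (+/+) animals. *Timp2* stands alone at the top with 143 to 170 CPM per kb in (+/+), and 13 members lie under 1.

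No member passed an adjusted p under 0.1 in either direction in the quasi-likelihood test of edgeR, where 0% of the 18264 tested genes passed as well (smallest adjusted p of any gene = 0.166, from edgeR, shared by *Adamts20*). At an unadjusted p under 0.05 from edgeR, 9 members (22.5%) were higher in (+/−) cultures and 3 (7.5%) were lower, against 13.2% and 9.11% of all tested genes. Every (+/−) animal lay above every (+/+) animal in 7 members (17.5%, background 15.5%) and below in 4 (10%, background 13.5%). Fold changes were positive in 26 of 40 members (65.0%), against 50.4% of all tested genes, with a median log2 fold change of 0.16 against 0.0031 over all tested genes. Without replicate 505 the median of the members was −0.011. In bulk RNA, a lower or higher level can come from fewer or more cells of a type or from less or more RNA per cell, and these cannot be told apart.

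Other fits of the same counts called some members. DESeq2 on the 6 animals called 6 members higher at an adjusted p under 0.1 (7.36% of tested genes) and 0 lower (4.08%), and limma voom called 0 in both directions. The 6 were *Adamts20* (adjusted p = 0.0068 from DESeq2), *Timp4* (0.045), *Mmp12* (0.058), *Adamts15* (0.059), *Timp3* (0.059) and *Adamts6* (0.070). The same 6 were called by edgeR with no low-count filter (3.16% of 32322 genes), with 0 members lower (1.4%). Without (+/+) replicate 513, edgeR called 5 members higher (12.3% of tested genes), namely *Timp4*, *Timp3*, *Adamts20*, *Mmp12* and *Mmp16*, and 0 lower (5.95%). A fit of the 12 libraries with the library number as a replicate block, which takes both libraries of an animal as separate samples and so gives p-values that are too small, called 14 members higher (24.1% of tested genes) and 6 lower (21.5%). Over all alternatives tried, the adjusted p of *Adamts20* ran from 0.0040 to 0.49, that of *Timp4* from 0.013 to 0.49 and that of *Adamts6* from 0.017 to 0.49. The count at an unadjusted p under 0.05 moved as well, with the share of all tested genes given beside each. The 9 higher became 14 in the replicate block (24.7% of tested genes) and 12 without replicate 508 (11.8%). They were 5 without replicate 511 (7.02%) and 2 without replicate 510 (6.7%). With no low-count filter they were 13 (3045 of 32322 tested genes), and with DESeq2 11 (2455 of 18264). Without replicate 513 they were 11 (3375 of 18638), and without replicate 505 they were 6 (1541 of 18530). The 3 lower became 7 in the replicate block (22.2%), 5 with DESeq2 (10.9%), with limma voom (9.53%), with no low-count filter (7.44%) or without replicate 513 (12.5%), 1 without replicate 510 (3.5%) and 0 without replicate 511 (3.03%).

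**Figure D2:**
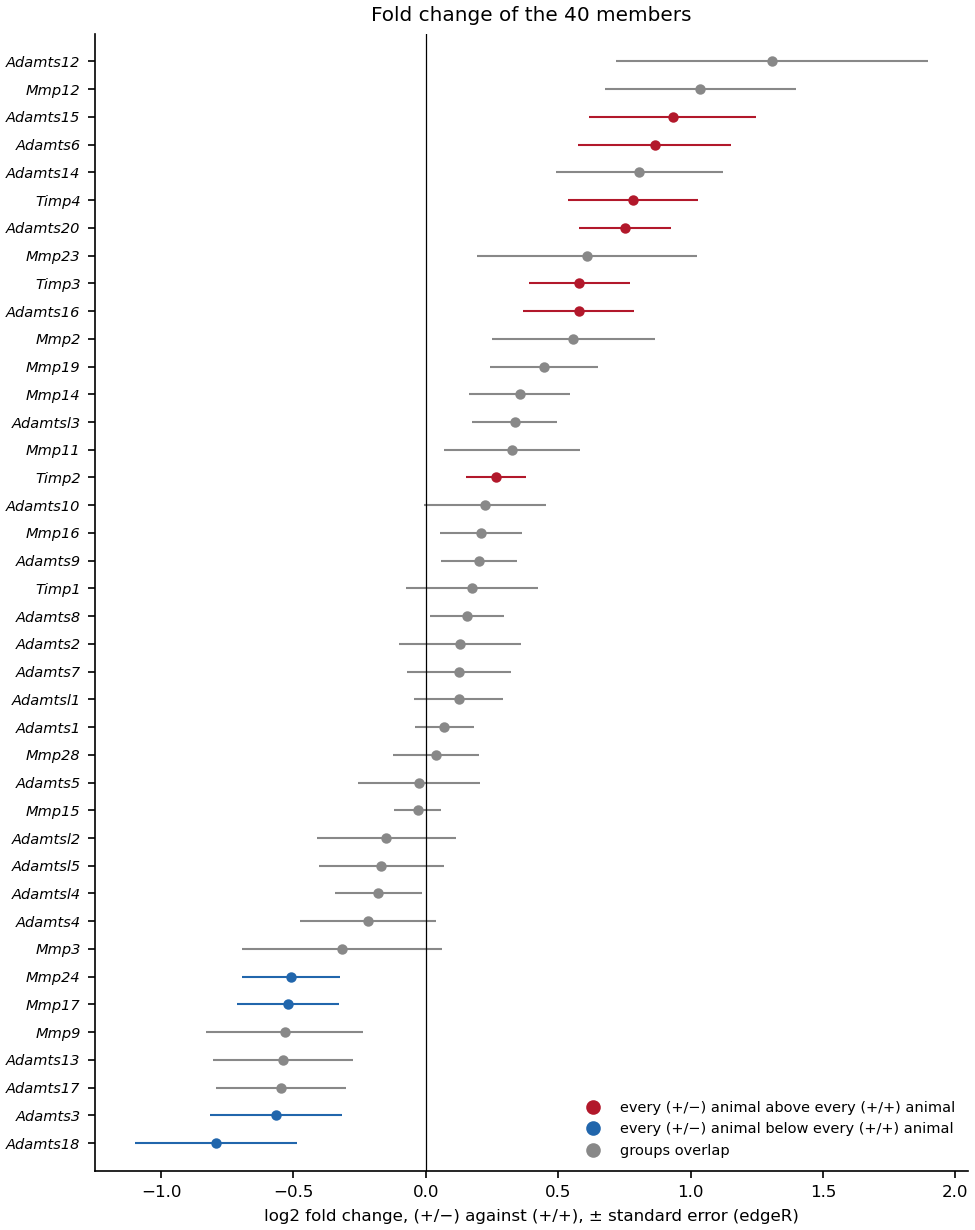
log2 fold change, (+/−) against (+/+), of the 40 members with its standard error from edgeR. Colours mark the 7 members with every (+/−) animal above every (+/+) animal, the 4 with every one below, and those whose groups overlap. The values run from −0.79 (*Adamts18*) to 1.31 (*Adamts12*), and 26 are positive.

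All 4 TIMP genes had positive fold changes, with a median log2 fold change of 0.42, and in 3 of them the groups did not overlap. Of all tested genes 50.4% had positive fold changes, and in 15.5% every (+/−) animal lay above every (+/+) animal. In (+/−) animals 505, 506 and 508, *Timp3* (chr10:86300372-86349506), whose protein stays bound to the matrix, had levels of 478, 384 and 431 CPM, and in (+/+) animals 510, 511 and 513 of 242, 246 and 378 CPM. Its means were 431 ± 46.8 and 289 ± 77.3 CPM (SD, n = 3 each), a ratio of 1.49 and a log2 fold change of 0.58 (SE 0.19, adjusted p = 0.176 from edgeR). The lowest (+/−) animal was only just above (+/+) replicate 513, whereas the other (+/+) animals lay well below. *Timp4* (chr6:115241892-115252205), a TIMP found mainly in brain and heart, was at 40.9, 33.5 and 38.9 CPM in (+/−) and at 18.8, 15.5 and 31.7 CPM in (+/+) animals in the same order. Its log2 fold change was 0.78 (SE 0.25, adjusted p = 0.170 from edgeR), and again replicate 513 was the (+/+) animal nearest to (+/−). *Timp2* (chr11:118301069-118355740) was at 746, 689 and 728 CPM against 559, 580 and 662 CPM, the smallest fold change of the 3 with a log2 value of 0.26 (SE 0.11, adjusted p = 0.220 from edgeR). For each of these 3 genes the exact two-sided permutation test gave p = 0.1, the smallest that 3 animals against 3 allow.

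*Timp1* (chrX:20870166-20874735), the TIMP known for its induction in reactive glia and by inflammation, was at 22.4, 27.7 and 13.9 CPM in (+/−) and 22.6, 15.5 and 18.6 CPM in (+/+) animals. The groups overlapped, the log2 fold change was 0.18 (SE 0.25, adjusted p = 0.663 from edgeR), and it turned to −0.075 without replicate 506. Leaving out 1 animal at a time kept the other 3 positive, with log2 fold changes of 0.45 to 0.81 for *Timp3*, 0.58 to 1.12 for *Timp4* and 0.20 to 0.33 for *Timp2*, each highest without replicate 513. Summed over the 4 genes, TIMP counts were at 1287, 1134 and 1213 CPM in (+/−) and at 842, 858 and 1090 CPM in (+/+) animals, of which *Timp2* and *Timp3* made up the largest share in every animal. The 13 *Mmp* genes summed to 675, 537 and 514 CPM in (+/−) and to 568, 594 and 489 CPM in (+/+) animals, with overlapping groups.

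3 of the TIMP genes lie within synapsin genes on the opposite strand, *Timp1* in *Syn1*, *Timp4* in *Syn2* and *Timp3* in *Syn3*. Synapsins are the phosphoproteins that hold synaptic vesicles in reserve at the nerve terminal. The synapsin genes had negative fold changes. *Syn2* was at 174, 359 and 378 CPM in (+/−) against 490, 562 and 384 CPM in (+/+) animals, a log2 fold change of −0.66 (SE 0.29, adjusted p = 0.227 from edgeR) with every (+/−) animal below. *Syn3* was at 3.17, 5.26 and 6.00 CPM against 8.36, 9.75 and 7.12 CPM, with a log2 fold change of −0.81 (SE 0.24, adjusted p = 0.168 from edgeR), also with every (+/−) animal below. *Syn1* was at 138, 244 and 296 CPM against 308, 376 and 275 CPM with overlapping groups (log2 fold change −0.50, SE 0.26, adjusted p = 0.277 from edgeR). Host and hosted gene thus had fold changes of opposite sign in all 3 pairs, except for *Timp1* without replicate 506. Of 8 marker genes of neurons, 0 had a positive fold change, with a median log2 fold change of −0.46. Whether the opposite signs are particular to these pairs was not tested. *Timp3* and *Syn3* share 1733 exon bases and *Timp4* and *Syn2* share 90, whereas *Timp1* and *Syn1* share 0. Over all libraries *Timp3* had 94901 counts and *Syn3* 1783, while *Timp4* had 7854 and *Syn2* 105310. How the shared bases were counted was not given in the sources used here.

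**Figure D3:**
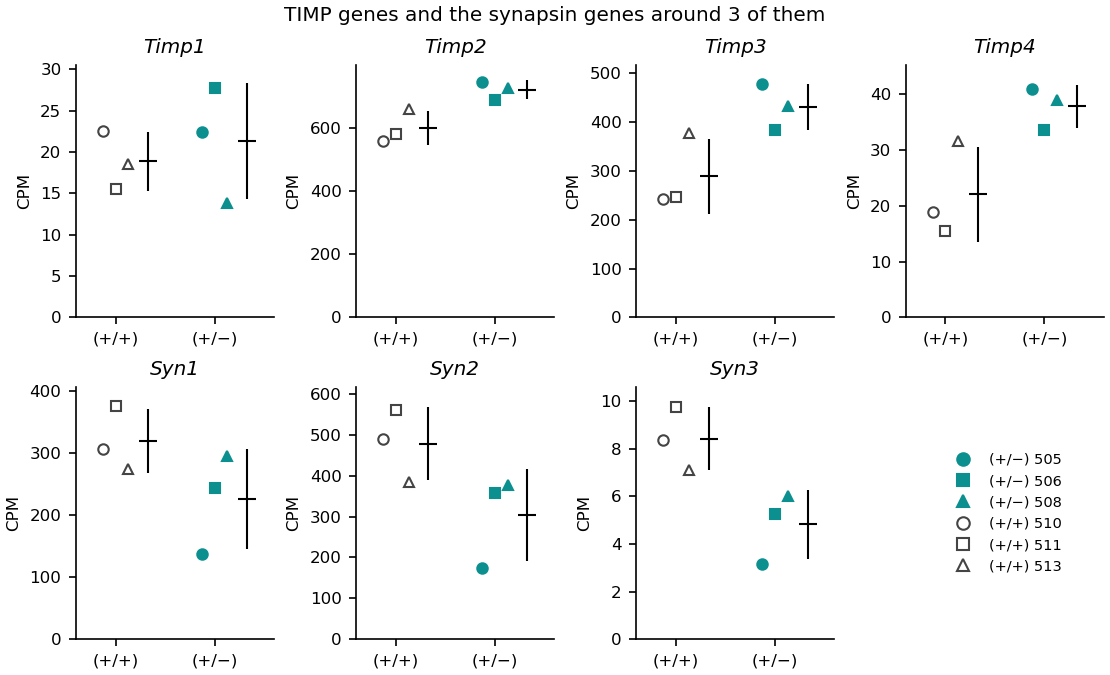
CPM of the 4 TIMP genes and of *Syn1*, *Syn2* and *Syn3* in each animal, with the mean and SD of each genotype (n = 3) beside the points. Every axis starts at 0. The (+/−) animals lie above the (+/+) animals for *Timp2*, *Timp3* and *Timp4* and below them for *Syn2* and *Syn3*.

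Of the 7 ADAMTS genes whose proteins cut chondroitin sulphate proteoglycans such as versican, brevican and aggrecan, 5 had positive fold changes. In 2 of them every (+/−) animal lay above every (+/+) animal, as in 15.5% of all tested genes. *Adamts20* (chr15:94270163-94465418), a versican-cleaving protease needed by pigment cell precursors, was at 30.5, 22.0 and 26.8 CPM in (+/−) and at 15.7, 12.7 and 18.7 CPM in (+/+) animals. The means were 26.4 ± 4.23 and 15.7 ± 3.01 CPM (SD, n = 3 each), a ratio of 1.68 and a log2 fold change of 0.75 (SE 0.17, adjusted p = 0.166 from edgeR). It had the smallest p of all members (unadjusted p = 0.0026 from edgeR), and its log2 fold change stayed between 0.62 and 0.88 with any 1 animal left out. *Adamts15* (chr9:30899155-30922452), another versicanase, was at 18.2, 8.14 and 8.58 CPM against 5.99, 7.08 and 5.27 CPM, a log2 fold change of 0.93 (SE 0.32, adjusted p = 0.180 from edgeR). Replicate 505 was more than the other (+/−) animals combined, and without it the log2 fold change was 0.45. *Adamts1* (chr16:85793827-85803113), the most abundant ADAMTS gene, was at 166, 144 and 139 CPM against 153, 128 and 146 CPM, with a log2 fold change of 0.070 (SE 0.11, adjusted p = 0.701 from edgeR) and overlapping groups. The remaining 4 overlapped too. *Adamts5* and *Adamts4*, the main aggrecanases, had log2 fold changes of −0.025 and −0.22 at (+/+) means of 28.3 and 4.64 CPM, while *Adamts9* and *Adamts8* were at 0.20 and 0.15 with (+/+) means of 32.4 and 7.28 CPM.

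The 3 procollagen N-propeptidases, which trim fibrillar procollagens, differed in sign among themselves. *Adamts3* (chr5:89677087-89883334), which also cuts reelin and pro-VEGF-C, was at 17.8, 31.9 and 35.4 CPM in (+/−) and at 39.3, 50.2 and 36.4 CPM in (+/+) animals. Every (+/−) animal lay below every (+/+) animal, replicate 508 only just, with a log2 fold change of −0.57 (SE 0.25, adjusted p = 0.227 from edgeR). It was −0.32 without replicate 505, the lowest animal. *Adamts14* (chr10:61197112-61273438) went the other way, at 4.96, 2.34 and 2.75 CPM against 1.56, 2.38 and 1.83 CPM, a log2 fold change of 0.81 (SE 0.32, adjusted p = 0.203 from edgeR). Its groups overlapped, and without replicate 505 the value was 0.41. *Adamts2* was at means of 11.9 and 10.9 CPM in (+/−) and (+/+) animals, a log2 fold change of 0.13.

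Among the 8 other ADAMTS genes 5 fold changes were positive and 3 negative. *Adamts6* (chr13:104287835-104496695), which belongs with *Adamts10* to a pair linked to fibrillin microfibrils, was at 5.79, 3.04 and 3.10 CPM in (+/−) and at 1.83, 2.27 and 2.48 CPM in (+/+) animals, from 95 to 263 counts per animal. The means were 3.98 ± 1.57 and 2.19 ± 0.335 CPM (SD, n = 3 each), a ratio of 1.81 and a log2 fold change of 0.86 (SE 0.29, adjusted p = 0.178 from edgeR). Every (+/−) animal lay above every (+/+) animal (exact two-sided permutation test, p = 0.1), with replicate 505 far above the other (+/−) animals, and without it the log2 fold change was 0.49. Its partner *Adamts10* had means of 8.77 and 7.51 CPM, a log2 fold change of 0.22 that was −0.071 without replicate 505.

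*Adamts16* and *Adamts18* form another close pair, and their fold changes had opposite signs. *Adamts16* (chr13:70727802-70841811) was at 1.67, 1.40 and 1.92 CPM in (+/−) and at 1.19, 0.979 and 1.17 CPM in (+/+) animals, all above, with a log2 fold change of 0.58 (SE 0.21, adjusted p = 0.189 from edgeR). *Adamts18* (chr8:113697126-113848738) was at 0.947, 0.676 and 1.28 CPM against 1.40, 2.23 and 1.40 CPM, all below, with a log2 fold change of −0.79 (SE 0.31, adjusted p = 0.199 from edgeR). Both were scarce, with 44 to 78 counts per animal for *Adamts16* and 28 to 100 for *Adamts18*. Neither had its extreme value in replicate 505.

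*Adamts12* and *Adamts7*, which cut cartilage oligomeric matrix protein, had log2 fold changes of 1.31 and 0.13. The value of *Adamts12*, the highest of all members, rested on replicate 505: the gene was at 10.2, 2.29 and 2.29 CPM in (+/−) and 1.56, 2.45 and 2.01 CPM in (+/+) animals, and the log2 fold change was 0.19 without that animal. *Adamts17* (chr7:66839735-67153171), the most abundant of the 8, was at 7.45, 12.96 and 12.7 CPM against 15.7, 19.99 and 12.7 CPM, a log2 fold change of −0.55 (SE 0.24, adjusted p = 0.231 from edgeR) with overlapping groups, and of −0.33 without replicate 505. *Adamts13*, the von Willebrand factor protease, had means of 1.52 and 2.20 CPM and a log2 fold change of −0.54.

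**Figure D4:**
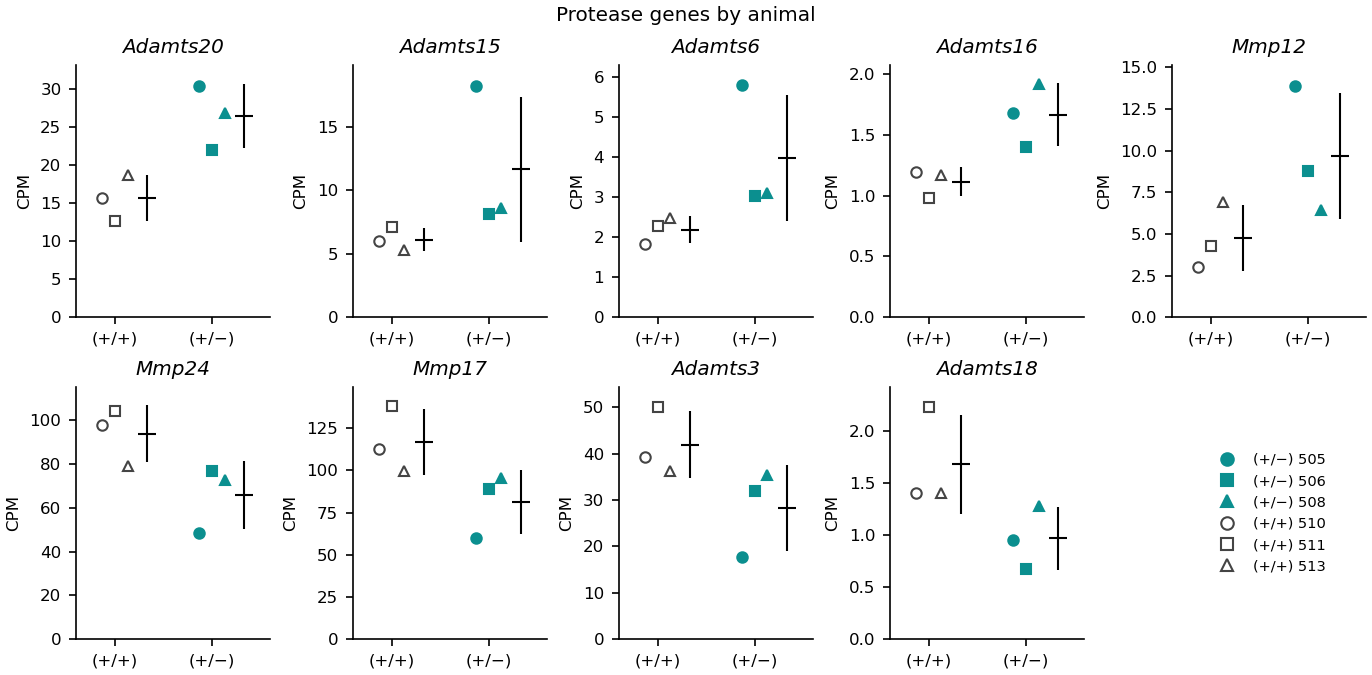
CPM of 9 protease genes in each animal, with the mean and SD of each genotype (n = 3) beside the points and every axis starting at 0. The 4 ADAMTS genes of the top row lie higher in every (+/−) animal, the 4 genes of the bottom row lower, and for *Mmp12* replicates 508 and 513 cross.

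Among the metalloproteases proper, 8 fold changes were positive and 5 negative. The gelatinases MMP2 and MMP9, which cut denatured collagen and basement membrane, had log2 fold changes of opposite sign. *Mmp2* (chr8:92827291-92853420), the most abundant *Mmp* gene, was at 253, 127 and 110 CPM in (+/−) and at 122, 123 and 87.2 CPM in (+/+) animals, a log2 fold change of 0.56 (SE 0.31, adjusted p = 0.295 from edgeR). The groups overlapped, and the value was 0.093 without replicate 505. *Mmp9*, the gelatinase studied most in synaptic plasticity, had means of 2.57 and 3.71 CPM and a log2 fold change of −0.53, also with overlap.

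Of the 5 membrane-type (MT) MMPs, 2 were lower in every (+/−) animal than in every (+/+) animal, as were 13.5% of all tested genes. *Mmp24* (chr2:155775342-155818366), which encodes the mainly neuronal MT5-MMP, was at 48.3, 76.9 and 72.5 CPM in (+/−) and at 97.8, 104 and 79.2 CPM in (+/+) animals. Its log2 fold change was −0.51 (SE 0.19, adjusted p = 0.190 from edgeR). *Mmp17* (chr5:129584169-129611099), which encodes the lipid-anchored MT4-MMP, was at 59.8, 89.0 and 95.3 CPM against 113, 138 and 99.3 CPM, a log2 fold change of −0.52 (SE 0.19, adjusted p = 0.193 from edgeR). In both genes replicate 505 was lowest and replicate 513 the lowest of the (+/+) animals, and without replicate 505 the log2 fold changes were −0.33 and −0.34. *Mmp14*, whose protein activates the MMP2 proenzyme at the cell surface, had a log2 fold change of 0.35 (SE 0.19, adjusted p = 0.286 from edgeR) at 119, 76.4 and 73.4 CPM against 78.8, 66.4 and 65.4 CPM, and of 0.094 without replicate 505. *Mmp15* and *Mmp16* had log2 fold changes of −0.031 and 0.21, at (+/+) means of 88.5 and 16.4 CPM.

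All 4 other MMPs had positive values. *Mmp12* (chr9:7344381-7369499), the elastase of macrophages, was at 13.9, 8.76 and 6.47 CPM in (+/−) and at 3.04, 4.30 and 6.91 CPM in (+/+) animals. Its ratio of means was 2.04 and its log2 fold change 1.04 (SE 0.36, adjusted p = 0.184 from edgeR). Only replicates 508 and 513 crossed, and an exact permutation test (two-sided) gave p = 0.2. Leaving out 1 animal at a time gave 0.69 to 1.39. *Mmp19* (chr10:128790910-128800824), a basement membrane protease, was at 38.5, 26.1 and 24.0 CPM against 19.6, 19.3 and 26.2 CPM, a log2 fold change of 0.45 (SE 0.20, adjusted p = 0.237 from edgeR) with overlap, and of 0.21 without replicate 505. *Mmp23* had means of 4.62 and 3.04 CPM (log2 fold change 0.61, and −0.015 without replicate 505), and *Mmp28* means of 8.64 and 8.42 CPM (log2 fold change 0.037). Of the stromelysins, *Mmp11* (chr10:75923222-75936496) was at 20.4, 12.3 and 10.5 CPM against 13.4, 11.7 and 9.32 CPM, with overlapping groups, a log2 fold change of 0.33 (SE 0.26, adjusted p = 0.435 from edgeR) and −0.014 without replicate 505. *Mmp3*, the member closest to the level limit, reached 0.779 CPM at most, with 13 to 35 counts per animal and a log2 fold change of −0.32.

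The ADAMTS-like proteins resemble ADAMTS proteases but lack the catalytic domain, and several bind fibrillin microfibrils. None of the 5 genes had an unadjusted p under 0.05 from edgeR or groups that did not overlap. *Adamtsl1* (chr4:85514172-86428385), the one with the highest CPM, was at 102, 75.9 and 63.5 CPM in (+/−) and 69.6, 80.7 and 71.5 CPM in (+/+) animals (log2 fold change 0.12, SE 0.17, adjusted p = 0.650 from edgeR). *Adamtsl4* was at means of 62.6 and 70.9 CPM, *Adamtsl3* at 36.1 and 28.6, *Adamtsl5* at 4.49 and 5.05 and *Adamtsl2* at 2.05 and 2.28 CPM in (+/−) and (+/+) animals. Their log2 fold changes lay between −0.18 and 0.34.

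11 genes matched by name but stayed under 0.5 CPM in every animal. Just outside the limit were *Mmp13* with at most 0.492 CPM and *Adamts19* with at most 0.443 CPM. *Mmp25* reached 0.331, *Mmp10* 0.245, *Mmp27* 0.154, *Mmp8* 0.0441 and *Mmp21* 0.0241 CPM, while *Mmp1a*, *Mmp1b*, *Mmp7* and *Mmp20* had 0 counts in every library. All collagenase genes (*Mmp1a*, *Mmp1b*, *Mmp8* and *Mmp13*) were thus below the limit.

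Seen by animal, the members differed within a genotype as well as between genotypes. The median over the 40 members of log2(CPM + 0.1) minus the (+/+) mean was 0.39, 0.095 and −0.053 for (+/−) animals 505, 506 and 508, against −0.021, 0.033 and −0.047 for (+/+) animals 510, 511 and 513. Replicate 505 therefore lay apart from the other (+/−) animals, which were close to (+/+) on this measure. Of the 7 members with every (+/−) animal above, 6 were highest in replicate 505, and of the 4 with every (+/−) animal below, 3 were lowest there. Without replicate 505, groups did not overlap in 7 members above (18.2% of tested genes) and in 7 below (16.9%). Without replicate 513 they were 12 (28.4%) and 8 (26.8%), and without replicate 508 4 lay below (21.2%). With fewer animals, groups are less likely to overlap, so these counts are read against their own shares only. Over the 12 libraries of the block fit 2 members lay below (5.8%).

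**Figure D5:**
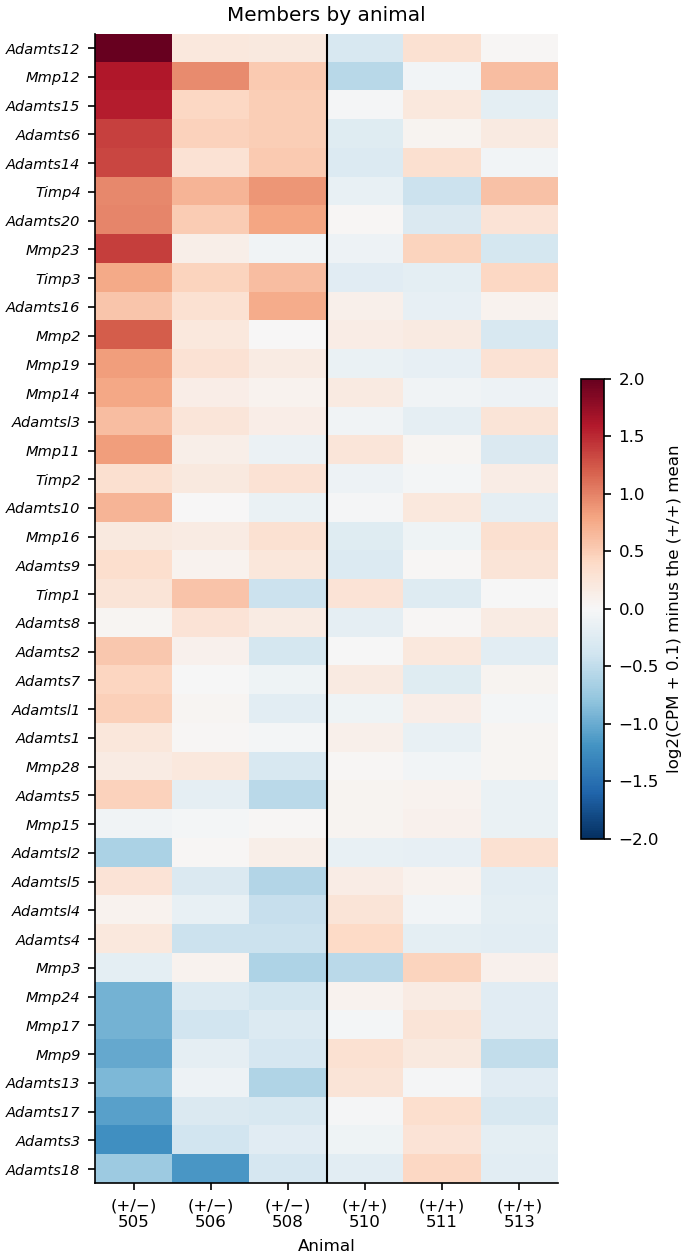
Members (rows, ordered by log2 fold change) in each animal (columns), as log2(CPM + 0.1) minus the mean of the (+/+) animals on a colour scale that is cut off at both ends. Replicate 505 has the strongest colours in most of the outer rows, though not for *Adamts16* and *Adamts18*, and *Timp3*, *Timp4*, *Adamts20* and *Adamts16* are higher in all 3 (+/−) animals.

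The substrates, activators and other inhibitors of these proteases were followed in a list of 42 genes, of which 40 were tested. None passed an adjusted p under 0.1 from edgeR, and at an unadjusted p under 0.05 7 were higher and 2 lower in (+/−) cultures, where 13.2% and 9.11% of all tested genes were. Of the 8 genes of proteoglycans, which are ADAMTS substrates, and of their link proteins, 7 had negative fold changes, with a median of −0.25. Of all tested genes 50.4% were positive. Among the 7 was *Hapln2*, which had only 0 to 17 counts per animal (log2 fold change −0.62, SE 0.80). Among the proteoglycan genes, *Acan*, *Ncan* and *Vcan* had log2 fold changes of −0.22, −0.44 and −0.058, and *Bcan*, the brevican gene, had one of 0.16. *Ncan*, which encodes neurocan, was at 220, 275 and 298 CPM in (+/−) and at 338, 401 and 337 CPM in (+/+) animals, all below (log2 fold change −0.44, SE 0.14, adjusted p = 0.173 from edgeR). *Hapln4*, a link protein of perineuronal nets, was at 5.18, 10.2 and 7.70 CPM against 11.9, 14.6 and 10.7 CPM, also all below (log2 fold change −0.69, SE 0.24, adjusted p = 0.188 from edgeR). Of the 11 other matrix and adhesion substrates 10 were positive, with a median of 0.22. *Reln*, which encodes reelin, was at 146, 111 and 133 CPM against 93.0, 71.7 and 101 CPM, all above (log2 fold change 0.55, SE 0.15, adjusted p = 0.167 from edgeR). *Dag1*, the dystroglycan gene, was at 570, 505 and 521 CPM against 391, 396 and 496 CPM, all above (log2 fold change 0.32, SE 0.13, adjusted p = 0.211 from edgeR).

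Of the 7 related ADAM proteases tested, 5 were positive (50.4% of all tested genes) and 4 were higher at an unadjusted p under 0.05 from edgeR (13.2% of all tested genes). *Adam8*, a protease of myeloid cells, was at 18.1, 10.8 and 10.6 CPM in (+/−) and at 5.80, 8.37 and 8.62 CPM in (+/+) animals, all above (log2 fold change 0.80, SE 0.25, adjusted p = 0.170 from edgeR). *Adam10* and *Adam17*, the main sheddases, had log2 fold changes of 0.24 and 0.37 (adjusted p = 0.203 and 0.206 from edgeR). *Furin*, which removes the propeptide of membrane-anchored MMPs and ADAMTS proteases, had a log2 fold change of 0.26 (SE 0.10, adjusted p = 0.196 from edgeR). With *Furin* included, 4 of 7 activators were positive. The clearance receptors were divided in sign, with 1 of 2 positive, and so were the 5 other inhibitors tested, with 3 positive. *Plg* and *Tfpi2* did not pass the low-count filter.

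Marker genes of the cell types that such cultures can hold differed between the animals as well. The 8 neuronal markers, all detected, summed to 2140 to 4022 CPM in (+/−) and to 4088 to 4675 CPM in (+/+) animals, lowest in replicate 505, and 0 of 8 had a positive fold change. *Mmp24*, *Mmp17* and *Adamts3* were lowest in replicate 505 too. The 7 astrocyte markers summed to 10260 to 11605 CPM in (+/−) and to 7285 to 11274 CPM in (+/+) animals (5 of 7 positive). The highest of the (+/+) sums was that of replicate 513, the (+/+) animal with the most *Timp2*, *Timp3* and *Timp4*. In every animal *Gfap* was the largest part of the astrocyte sum, at 5799 to 6079 CPM in (+/−) and 2769 to 6156 CPM in (+/+). The negative markers *Slc1a3* and *Slc1a2* had log2 fold changes of −0.020 and −0.067. All 6 ependymal markers were positive and summed to 800 to 914 CPM against 442 to 641 CPM. The largest part of these was *Foxj1*, at 582 to 647 CPM against 349 to 484 CPM. Microglial markers, 10 of 10 positive, summed to 129 to 243 CPM in (+/−) and to 93.3 to 122 CPM in (+/+) animals, and those of border macrophages, 5 of 5 positive, to 30.0 to 74.9 CPM against 13.8 to 33.3 CPM. Both sums were highest in replicate 505, as *Mmp12* was, but among (+/+) animals *Mmp12* was highest in replicate 513, where the microglial sum was lowest. Meningeal fibroblast markers, 7 of 7 positive, summed to 424 to 1756 CPM against 190 to 893 CPM. Choroid plexus markers, with 5 of 6 tested positive, summed to 380 to 1414 CPM against 82.4 to 248 CPM. *Ttr* was the largest part of these, at 303 to 1302 CPM against 47.1 to 205 CPM. The meningeal sum was highest in replicate 505, but so was the sum of every other list except the neuronal one. Replicate 505 was also highest in 23 of the 40 members, *Mmp2*, *Mmp12*, *Adamts12* and *Adamts15* among them. Endothelial and mural markers (6 of 7 tested positive) summed to 378 to 582 CPM against 338 to 420 CPM. Most of this sum was *Acta2*, at 317 to 483 CPM against 278 to 364 CPM. Oligodendrocyte lineage markers (4 of 6 tested positive) summed to 105 to 129 CPM against 84.8 to 108 CPM. No marker was at 0 in all animals, but *Cldn5*, which defines brain endothelium, reached 0.058 CPM at most. The part of these cell types in the values of the proteases and inhibitors was not tested.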

How the data were processed

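RNA was measured in 12 libraries of 6 animals, 3 *Myt1l* (+/−) and 3 (+/+), grouped by the sample labels. The values deposited by the authors are unnormalised counts of each gene in each library. Their processing notes name STAR and the build mm10. The counting tool and its strand setting are not given in the sources used here, so counts of overlapping genes could have been split or lost. Such overlaps on the opposite strand, with shared exon bases and over 200 counts in the other gene, concern 8 members (*Mmp24*, *Adamts7*, *Mmp19*, *Adamts4*, *Adamts9*, *Mmp11*, *Timp3* and *Timp4*). The deposited normalised counts and the deposited table of fold changes and p-values were not used.

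Each animal's 2 libraries were added up and tested in R 4.3.3 with the quasi-likelihood test of edgeR 4.0.16 (filterByExpr by genotype, TMM, Benjamini-Hochberg over 18264 genes, adjusted p under 0.1). The standard error was taken as the absolute log2 fold change over the square root of F. Libraries held 20181477 to 26594444 counts, and the member with the fewest had 13 counts in an animal. For single levels, exact permutation tests (two-sided) ran over all 20 splits. The scripts were tested on simulated data.

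The members, gene lists and named genes were chosen with earlier results of these data known. Values in all animals are given for *Adamts6*, the TIMPs, the member with the highest CPM of each role, and members with an unadjusted p under 0.05 or groups that did not overlap. *Mmp14* and *Adamts12* were added after their values were seen. Of the 42 partner genes, the 8 with the smallest p among those under 0.05 were named. Gene positions equal those of GENCODE M21 on mm10. Promoters came from RefSeq (GRCm38.p6), and 14 members, *Adamts6* among them, had no window. Alternatives were DESeq2 1.42.0 and its size factors, limma voom 3.58.1, no low-count filter, either library alone, 12 libraries with a replicate block, other member rules, a threshold of 0.05 and each animal left out.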

Additional observations from a re-analysis of the deposited data

How the results depend on the processing

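Percentages in brackets are shares of all tested genes in the same setting. The 0 members higher at an adjusted p under 0.1 became 6 with DESeq2 (7.36%) and 6 with no low-count filter (3.16%). They became 14 in the replicate block (24.1%), and 0 to 5 with 1 animal left out (5 without 513, 12.3%). The 0 lower became 6 in the replicate block (21.5%) and stayed 0 with any animal left out. At an unadjusted p under 0.05, the 9 higher became 14 in the replicate block (24.7%). They were 13 with no filter (3045 of 32322 genes) and 11 with DESeq2 (2455 of 18264 genes). With 1 animal left out they ran from 2 (without 510, 6.7%) to 12 (without 508, 11.8%). They were 5 without 511 (7.02%) and 6 without 505 (1541 of 18530 genes). The 3 lower became 5 with DESeq2 (10.9%), limma voom (9.53%) or no filter (7.44%), and 7 in the replicate block (22.2%). They ran from 0 (without 511, 3.03%) to 5 (without 513, 12.5%) with 1 animal left out, and were 1 without 510 (3.5%). Members with every (+/−) animal above ran from 7 (without 505, 18.2%) to 12 (without 513, 28.4%), against 7 in the full set (15.5%). Those with every one below ran from 4 (without 508, 21.2%) to 8 (without 513, 26.8%), with 7 without 505 (16.9%). The full set had 4 below (13.5%), and groups with more animals overlap more readily. Those below were 2 in the replicate block (5.8%). The block fit treats the 2 libraries of an animal as separate samples, so its p-values are too small, and its library numbers pair no animals. The median log2 fold change of 0.16 ran from −0.011 (without 505) to 0.23. In 26 of 40 members no sign changed in any of 13 settings, and of the changes in the other 14 all but 1 came from leaving out an animal. With 1 animal left out, log2 fold changes of these 14 ran from −0.085 to 0.26 (*Adamtsl1*), −0.30 to 0.065 (*Adamtsl2*), −0.45 to 0.0015 (*Adamtsl5*), −0.10 to 0.0097 (*Mmp15*), −0.071 to 0.37 (*Adamts10*), −0.054 to 0.22 (*Adamts7*), −0.015 to 0.87 (*Mmp23*), −0.072 to 0.18 (*Mmp28*), −0.13 to 0.32 (*Adamts2*), −0.011 to 0.11 (*Adamts1*), −0.48 to 0.0061 (*Adamts4*), −0.35 to 0.17 (*Adamts5*), −0.014 to 0.50 (*Mmp11*) and −0.075 to 0.40 (*Timp1*). *Adamts5* was at 0.035 with library 2 alone. Causes were not tested. With 3 animals per genotype, the exact test cannot go below p = 0.1.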
